A study of Saccharomyces cerevisiae with 4 samples.

Results

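Transcripts of 51 genes that make arginine, lysine, histidine, the branched-chain amino acids (leucine, isoleucine and valine) and the aromatic amino acids (tryptophan, tyrosine and phenylalanine) were followed in yeast grown on galactose or on glucose. It holds 7 arginine genes, 9 lysine genes, 7 histidine genes, 12 branched-chain genes, 5 tryptophan genes, 10 genes of the shikimate, tyrosine and phenylalanine pathways, and GCN4, the gene of their common activator. A gene entered through a probe set (a group of probes read as 1 value) whose platform annotation lists that gene symbol alone, and the brightest such probe set stood for it. All 51 were found among 5656 genes read in this way on 9275 probe sets. A single probe set read 49 of them, while HIS3 and LEU2 had others too.

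The cells were Saccharomyces cerevisiae ATCC 4126, with no gene deletion or plasmid named in the labels. The rich medium, YP, held galactose or glucose as its sugar, and total RNA came from cultures at OD600 1.0 (optical density, a measure of cell number). Each of 4 RNA samples was read on 1 Affymetrix yeast array, 2 per medium. The labels carry letters, by which the arrays are named here: B and C for galactose, A and B for glucose. Nothing says whether the letters mark separate cultures, so the spread behind the p-values is that of these samples alone and may be technical. What the shared letter B stands for is not given either.

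Yeast makes each of these amino acids through its own chain of enzymes, and most chains are held down at their first step by their end product. The activator Gcn4 raises many of the enzyme genes together when amino acids run short, a response called general amino acid control. Gcn4 itself is set mainly at translation, through short reading frames upstream of its own in the mRNA, so its transcript need not follow its activity. Pathway activators add to this: Lys14 acts on the lysine genes when an intermediate of that pathway is present, and Leu3 acts on leucine genes with the leucine precursor isopropylmalate. Rich medium contains peptides and amino acids.

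The deposited values are linear intensities, and the array medians lay between 108 and 117. The 4 galactose genes GAL1, GAL2, GAL7 and GAL10, which check the medium labels, summed to 34855 and 35276 on the galactose arrays and to 128 and 134 on the glucose arrays. Values under 18.5, the 25th percentile of all intensities, were set to that floor before log2 was taken. The media were compared over 7302 probe sets with limma, and p-values were adjusted over all of them (Benjamini-Hochberg). All 51 genes lay above the floor on all 4 arrays, the dimmest value being 31.7 for ARG3 in galactose B. With 2 arrays a medium, precision is low for every gene. In such bulk samples, fewer cells with a transcript and less of it per cell cannot be told apart.

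The first question was whether the pathways differed between galactose and glucose. None of the 51 genes passed the threshold of 0.05: 0 of 51 rose, where 0.794% of all tested probe sets did, and 0 of 51 fell, where 0.0411% did. Their adjusted p-values ran from 0.591 (CPA1) to 0.998. Before adjustment, 0 of 51 had a limma p under 0.05 in either direction, against 4.29% of probe sets higher and 4.33% lower in galactose. Those shares include probe sets without a gene of their own. With the brightest probe set per gene, the same fit had 12 of 5403 higher and 2 lower at the threshold, and 134 and 215 before adjustment. The difference of mean log2 intensities, galactose minus glucose, was negative for 39 of the 51 genes and positive for 12. Of all tested probe sets, 51.3% had a negative difference. The median difference of the 51 genes was -0.38, a level 1.30-fold lower in galactose, beside -0.0090 for all tested probe sets.

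Both galactose arrays lay below both glucose arrays for 16 of 51 genes (31.4%), beside 22.1% of all tested probe sets. For 0 of 51 did both galactose arrays lie above both glucose arrays, beside 17.0% of probe sets. Only 7 genes had a difference between the media that exceeded the difference inside each medium (13.7%, against 25.5% of probe sets): ARG1, CPA1, HIS4, ARO8, ARO9, ARO10 and TYR1. The median over the 51 differed between the galactose arrays, at -0.087 for galactose B and -0.42 for galactose C against the glucose mean. These are also its values with the other galactose array left out.

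**Figure D1:**
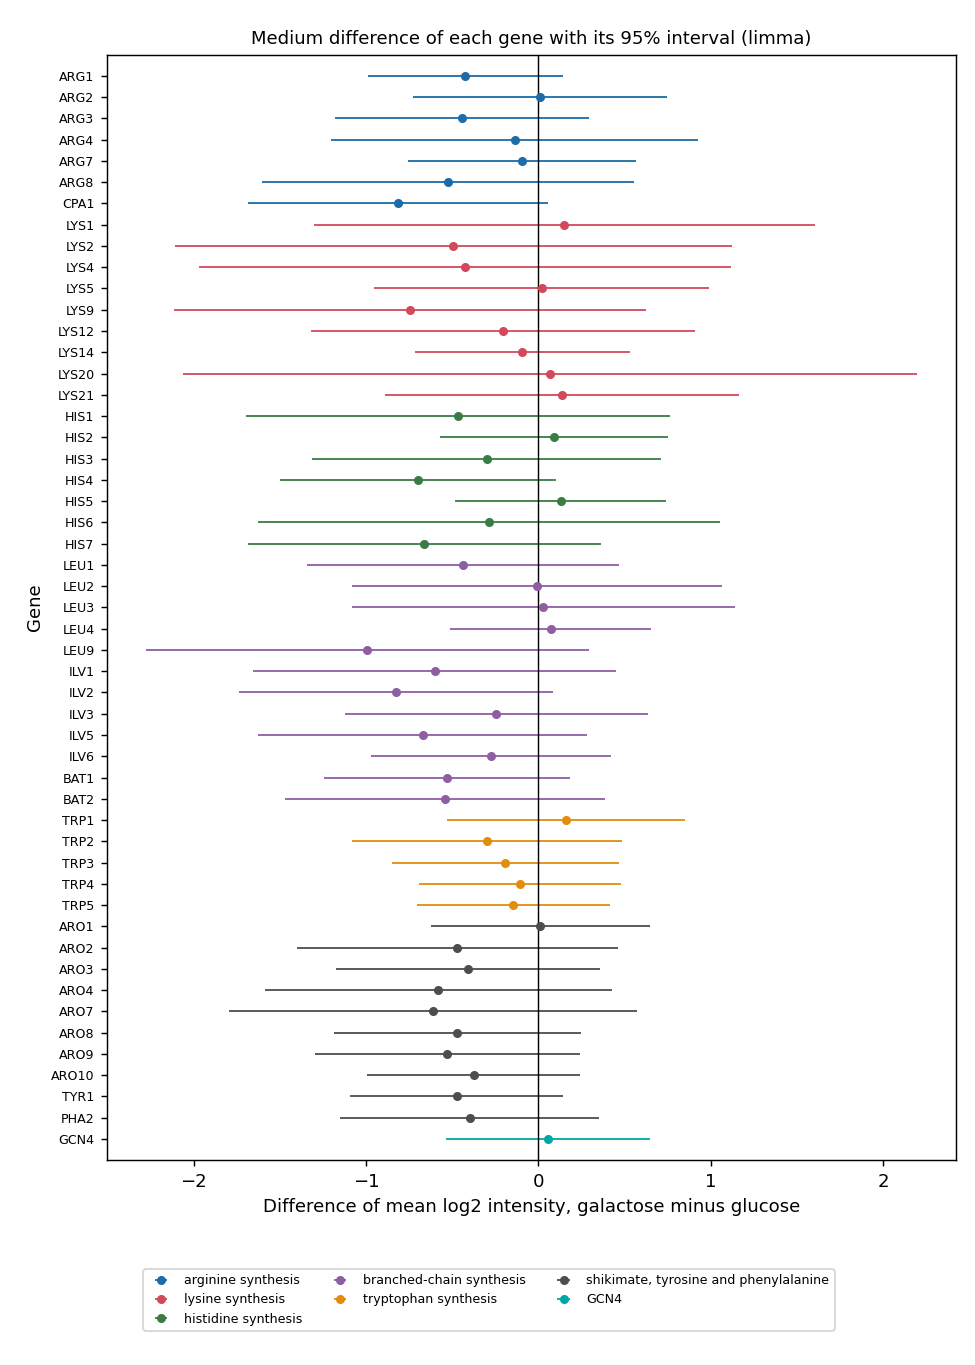
Difference of mean log2 intensity between galactose and glucose (horizontal axis) for each of the 51 genes (vertical axis, coloured by pathway), with points for the difference and bars for the 95% interval from limma, 2 arrays per medium. Every bar crosses 0, and the bars are longest for LYS20 (-2.06 to 2.20).

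Arginine is made from glutamate through acetylated intermediates to ornithine, and from ornithine and carbamoyl phosphate to arginine. CPA1 (YOR303W), the small subunit of the carbamoyl phosphate synthetase of this pathway, had the lowest unadjusted p of all 51 genes. Its intensity was 333 in galactose B, 202 in galactose C, 486 in glucose A and 427 in glucose B. Both galactose values were below both glucose values, a 1.76-fold lower level (limma, adjusted p = 0.591, 95% interval of the log2 difference -1.68 to 0.058). ARG1 (YOL058W), the argininosuccinate synthetase gene, stood at 44.6 in galactose B, 38.4 in galactose C, 61.2 in glucose A and 50.4 in glucose B, again without overlap (1.34-fold lower, adjusted p = 0.647). These values are dim, and with the floor raised to the 40th percentile the log2 difference of ARG1 was -0.0016. ARG3 (YJL088W), the ornithine carbamoyltransferase gene, stood at 31.7 in galactose B, 49.1 in galactose C, 49.8 in glucose A and 57.7 in glucose B. Its galactose arrays were also the lower ones, but galactose C came within 1 intensity unit of glucose A (adjusted p = 0.729).

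The other arginine genes overlapped between the media. ARG4 (YHR018C), which encodes argininosuccinate lyase, the last step, was 675 in galactose B, 711 in galactose C, 1101 in glucose A and 527 in glucose B. The glucose arrays thus enclosed both galactose arrays and differed 2.09-fold from each other, with glucose A the higher. ARG8, the acetylornithine aminotransferase gene, was 1.92-fold higher in galactose B than in galactose C. ARG2, the acetylglutamate synthase gene of the first step, stood at 362 ± 61.7 on galactose and 359.9 ± 64.8 on glucose (mean ± SD, n = 2 per medium here and below). ARG7, the ornithine acetyltransferase gene, averaged 152 ± 1.35 on galactose and 162 ± 17.8 on glucose. The median log2 difference of the 7 genes was -0.42, and it was -0.17 without galactose B, -0.18 without galactose C and -0.12 under a higher floor (40th percentile), which left 6 of the 7 genes tested.

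Histidine is made from phosphoribosyl pyrophosphate and ATP in a chain that starts with the transferase encoded by HIS1. HIS4 (YCL030C), a multifunctional enzyme gene long used to follow Gcn4 activity, stood at 1816 in galactose B, 1144 in galactose C, 2139 in glucose A and 2558 in glucose B. The media did not overlap, and the galactose level was 1.62-fold lower (adjusted p = 0.592, 95% interval of the log2 difference -1.50 to 0.10). HIS7 (YBR248C), the glutamine amidotransferase and cyclase gene, stood at 673 in galactose B, 345 in galactose C, 696 in glucose A and 834 in glucose B. Here too the media were apart, but galactose B lay next to glucose A and galactose C far below (adjusted p = 0.696).

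HIS1 itself was 3283 in galactose B, 1349 in galactose C, 2642 in glucose A and 3204 in glucose B, so galactose B was the highest array and galactose C the lowest. HIS6, the isomerase gene, was also lowest in galactose C, at 140.0, but highest in glucose B, at 335, and galactose B was 2.20-fold over galactose C. HIS5, the aminotransferase gene, stood at 598 ± 73.7 on galactose and 546 ± 24.9 on glucose, and HIS2, the histidinol phosphatase gene, at 419.9 ± 45.9 on galactose and 395 ± 54.0 on glucose. HIS3, the dehydratase gene, stood at 445 ± 102 on galactose and 565 ± 230.1 on glucose, and its second, dimmer probe set gave a log2 difference of -0.28 beside -0.30 on the brighter. The histidine median of -0.30 split by array: against the glucose mean galactose B gave 0.0024 and galactose C gave -0.85. Without glucose B it was 0.12.

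Isoleucine and valine share their mitochondrial steps, from which leucine branches off. ILV2 (YMR108W), the catalytic subunit of acetolactate synthase at the head of these steps, was 949 in galactose B, 531 in galactose C, 1180.2 in glucose A and 1337 in glucose B. Both galactose arrays were the lower ones, by 1.77-fold on the mean (adjusted p = 0.592, 95% interval of the log2 difference -1.73 to 0.086). The gene of its regulatory subunit, ILV6, stood at 914 ± 225 on galactose and 1088 ± 22.3 on glucose. ILV5 (YLR355C), the reductoisomerase gene, was 1736 in galactose B, 1004 in galactose C, 1765 in glucose A and 2503 in glucose B, with galactose B only just under glucose A (adjusted p = 0.667). ILV1, the threonine deaminase gene that opens the isoleucine branch, and ILV3, the dehydratase gene, overlapped between the media at log2 differences of -0.60 and -0.24. All 5 ILV genes were lower in galactose C, which also had the lowest array median, than in any other array.

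Leucine synthesis has a pair of isopropylmalate synthase genes at its first step, LEU4 and LEU9. LEU9 (YOR108W) had the largest difference between the media of all 51 genes. Its values were 182 in galactose B, 74.5 in galactose C, 213 in glucose A and 253 in glucose B, so that galactose C alone stood at less than 100 (1.99-fold lower on the mean, adjusted p = 0.633). LEU4 (YNL104C) was 818 in galactose B, 947 in galactose C, 815 in glucose A and 861 in glucose B, a spread of less than 20% over all arrays. Whether the 2 genes differ in their response was not tested. LEU1, the isomerase gene, and LEU2, the dehydrogenase gene, both targets of Leu3, stood highest in glucose B, at 656 and 482, against 377 and 233 in glucose A. LEU3 itself stood at 161 ± 68.8 on galactose and 154 ± 43.7 on glucose, with overlap. Of the 3 LEU2 probe sets, the brightest gave a log2 difference of -0.0090. The others were much dimmer, at intensities between 21.5 and 84.5, and gave -0.47 and -0.017.

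The branched-chain aminotransferases, which carry out the last step, are encoded by BAT1 in mitochondria and BAT2 in the cytosol. BAT1 (YHR208W) was 1085 in galactose B, 1053 in galactose C, 1273 in glucose A and 1871 in glucose B, without overlap between the media (1.44-fold lower, adjusted p = 0.649). BAT2 (YJR148W) had nearly the same difference (1.46-fold lower, adjusted p = 0.734) but lay at 656 in galactose B and 1016 in galactose C, the latter above the 957 of glucose A. BAT1 differed between the galactose arrays by only 1.03-fold. Over the 12 branched-chain genes the median log2 difference was -0.48, and all 12 were higher in glucose B than in glucose A, as were 3899 of all 7302 tested probe sets. The median was -0.82 without glucose A and stood at -0.24 without glucose B and -0.21 without galactose C.

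Among the pathways, the tryptophan genes had the smallest median absolute log2 difference between the galactose arrays, at 0.24. The widest range among them was that of TRP2, from 1027 in galactose C to 1712 in glucose B. TRP2, the anthranilate synthase gene at the head of the branch, stood at 1304 ± 393 on galactose and 1571 ± 199 on glucose, and TRP3, whose product works with it, at 375 ± 43.8 on galactose and 429 ± 52.0 on glucose. TRP4, the phosphoribosyltransferase gene, ranged only from 64.5 in galactose C to 77.4 in glucose B. TRP5 (YGL026C), the tryptophan synthase gene, was 1227 in galactose B, 1179.8 in galactose C, 1250.4 in glucose A and 1419 in glucose B; the media were apart there, but by 1.11-fold only (adjusted p = 0.872). TRP1, the isomerase gene, had a positive difference, at 780.0 ± 117 on galactose and 699.9 ± 128 on glucose. No tryptophan gene reached a 2-fold difference within either medium, and the median log2 difference was -0.15, between -0.24 and -0.028 with 1 array left out.

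The shikimate pathway leads to chorismate, from which tyrosine and phenylalanine branch off. Of these 10 genes, 6 were lower on each galactose array than on either glucose array, beside 22.1% of all tested probe sets. TYR1 (YBR166C), the prephenate dehydrogenase gene of the tyrosine branch, was the tightest of them at 248 in galactose B, 259 in galactose C, 338 in glucose A and 366 in glucose B. The arrays of a medium differed by 1.08-fold at most, while the media differed 1.39-fold (adjusted p = 0.637, 95% interval of the log2 difference -1.09 to 0.14). PHA2, the prephenate dehydratase gene of the phenylalanine branch, stood at 95.3 in galactose B, 133 in galactose C, 151 in glucose A and 147 in glucose B. The galactose arrays were again the lower ones (adjusted p = 0.751). ARO7, the chorismate mutase gene that feeds both branches, overlapped and had glucose B 1.87-fold over glucose A.

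The last transfer of nitrogen uses the aromatic aminotransferases, and a decarboxylase takes aromatic amino acids toward fusel alcohols. ARO8 (YGL202W), the main aminotransferase gene, was 1627 in galactose B, 1206 in galactose C, 1704 in glucose A and 2208 in glucose B. ARO9 (YHR137W), the aminotransferase gene known to be induced by aromatic amino acids through Aro80, was 305 in galactose B, 421 in galactose C, 456 in glucose A and 587 in glucose B. ARO10 (YDR380W), the decarboxylase gene under the same activator, was 335 in galactose B, 353 in galactose C, 480.2 in glucose A and 415 in glucose B. All 3 were apart between the media, by 1.38-fold, 1.44-fold and 1.30-fold, where 22.1% of all tested probe sets were lower in galactose without overlap. Each of these differences was larger than the difference within either medium, as for 25.5% of probe sets. The adjusted p-values of the 3 genes in limma were 0.694, 0.678 and 0.725. The probe set of ARO80 itself lay close to the floor on all arrays, between 19.6 and 21.5.

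The first shikimate step has an isozyme pair, ARO3 and ARO4, known for feedback by phenylalanine and by tyrosine. ARO3 (YDR035W) was 122 in galactose B, 169 in galactose C, 205 in glucose A and 178 in glucose B, with galactose B the lowest array. ARO4 (YBR249C) was 2165 in galactose B, 1153 in galactose C, 2032 in glucose A and 2746 in glucose B, with galactose C the lowest and galactose B above glucose A. ARO4 lies next to HIS7 on chromosome II in the RefSeq gene order, the only neighbours among the 51 genes. In both, galactose C was about equally far below galactose B (0.532 and 0.512 times its level). Members without a neighbour among the 51 had like ratios, such as ILV1 (0.531) and LEU3 (0.537). ARO2, the chorismate synthase gene, ran like ARO4, at 1876 in galactose B and 1033 in galactose C. ARO1, the gene of the multifunctional enzyme between them, stood at 629.7 ± 105 on galactose and 621 ± 12.6 on glucose. The median over the 10 genes was -0.47, and between -0.57 and -0.33 with any 1 array left out.

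Lysine genes showed no common difference between the media, but the widest spread within glucose. All 9 overlapped, as did 4442 of all 7302 tested probe sets, and the median log2 difference was -0.093. It turned with the glucose array left out, at -0.76 without glucose A and 0.28 without glucose B. LYS20 (YDL182W), one of the pair of homocitrate synthase genes at the lysine-inhibited first step, stood at 3578 in galactose B, 1717 in galactose C, 1109.5 in glucose A and 5045 in glucose B. Glucose B was 4.55-fold above glucose A, the third highest such ratio among 7302 tested probe sets, and galactose B was 2.08-fold above galactose C. The fit gave it an interval of -2.06 to 2.20 around a log2 difference of 0.067 (adjusted p = 0.989). LYS21 (YDL131W), its partner, ran the same way at 1799 in galactose B, 1271 in galactose C, 1006 in glucose A and 1882 in glucose B. The pair encodes closely similar proteins, and how far their probe sets read each other was not tested.

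The following steps of the pathway ran the same way. LYS4 (YDR234W), the homoaconitase gene, stood at 301 in galactose B, 165 in galactose C, 183 in glucose A and 489 in glucose B. LYS12 (YIL094C), the homoisocitrate dehydrogenase gene, stood at 1072 in galactose B, 895 in galactose C, 769 in glucose A and 1664 in glucose B. LYS2 (YBR115C), the aminoadipate reductase gene, stood at 1797 in galactose B, 709 in galactose C, 1053 in glucose A and 2398 in glucose B. In each, both B arrays lay above both other arrays.

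At the end of the pathway, the saccharopine dehydrogenase genes LYS9 and LYS1 completed this pattern. LYS9 (YNR050C) was 555 in galactose B, 402 in galactose C, 489 in glucose A and 1281 in glucose B, with glucose B alone far above the rest. LYS1 (YIR034C), the gene of the last step, was 382 in galactose B, 363 in galactose C, 196 in glucose A and 576 in glucose B, with glucose A the low array and little difference between the galactose arrays. Thus all 7 genes of the pathway's own steps were higher in glucose B than in glucose A and higher in galactose B than in galactose C, a grouping made after the values were seen. The remaining lysine genes ran otherwise. LYS5, whose product activates the Lys2 enzyme by attaching its cofactor, was lower on both B arrays, at 299 in galactose B, 423 in galactose C, 455 in glucose A and 271 in glucose B. LYS14, the pathway activator gene, varied between 82.2 and 97.4 only.

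**Figure D2:**
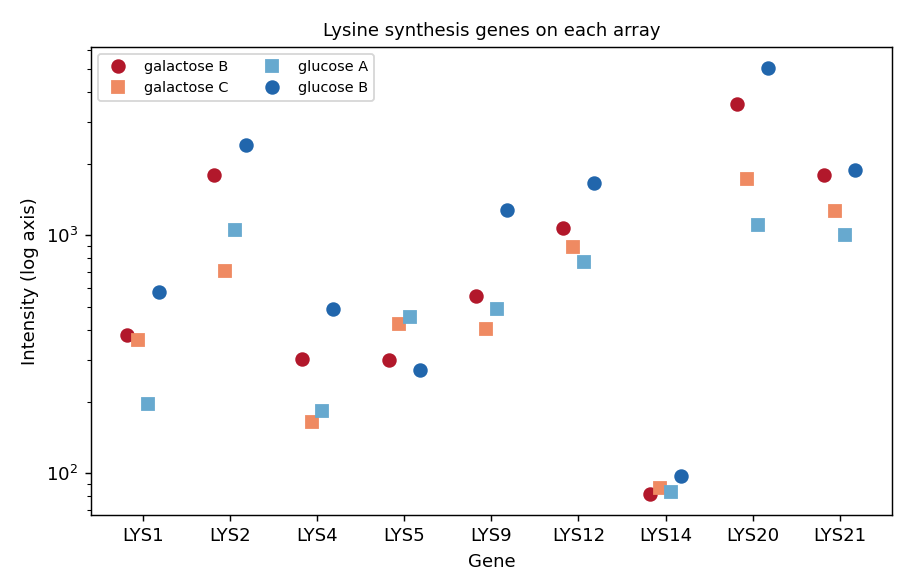
Intensity (vertical axis, log scale) of the 9 lysine genes (horizontal axis) on each of the 4 arrays, with red and orange for galactose and light and dark blue for glucose, circles for the B arrays and squares for the others. LYS20 runs from 1109.5 in glucose A to 5045 in glucose B, while LYS14 stays between 82.2 and 97.4.

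The second question was how the same genes vary inside each medium, where 1 array stands on each side and no test is possible. In glucose, 7 of 51 genes were at least 2-fold higher in glucose B than in glucose A, beside 1.01% of all tested probe sets: LYS1, LYS2, LYS4, LYS9, LYS12, LYS20 and LEU2. One gene, ARG4, was at least 2-fold lower in glucose B, beside 3.27% of probe sets. Of the 7, 6 are lysine genes, and these 6 ranked between 3 and 48 of 7302 by this ratio. The lysine median was 1.19 on the log2 scale, glucose B minus glucose A, against 0.26 for the other 42 genes and 0.031 for all tested probe sets.

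In galactose, 5 of 51 genes were at least 2-fold lower in galactose C than in galactose B, beside 6.78% of probe sets, and 0 of 51 were at least 2-fold higher, beside 5.94%. The 5 were LYS2 (2.53-fold), LEU9 (2.45-fold), HIS1 (2.43-fold), HIS6 (2.20-fold) and LYS20 (2.08-fold). The median log2 difference, galactose C minus galactose B, was -0.35 over the 51 genes, beside -0.024 over all tested probe sets. By pathway it was lowest for histidine (-0.67) and the branched-chain genes (-0.55), and nearest to 0 for the shikimate, tyrosine and phenylalanine genes (-0.14). Of these 10 genes 5 were lower in galactose C, a share near that of all tested probe sets (3769 of 7302). The median absolute difference of the 10 was 0.47, as over the 51.

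**Figure D3:**
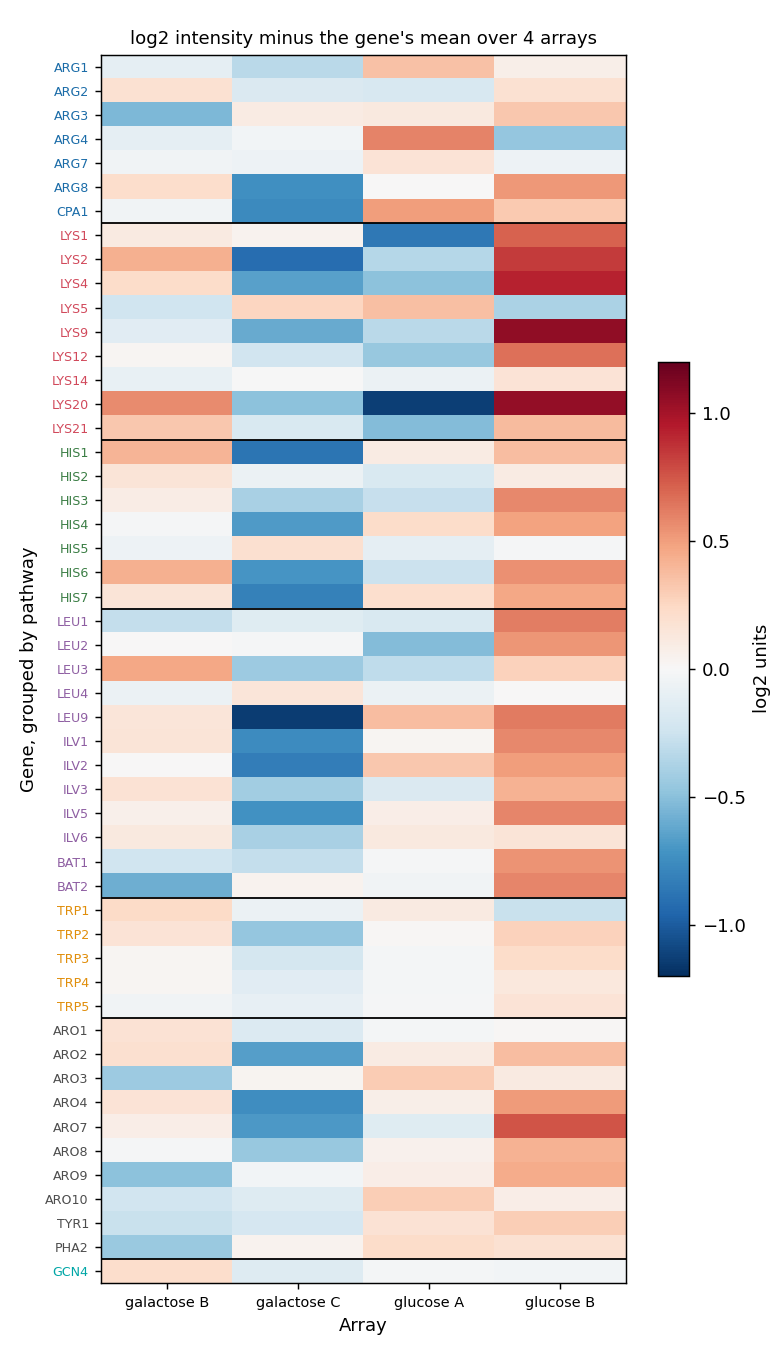
Deviation of log2 intensity from the gene's own mean over the 4 arrays (colour, red above and blue below) for the 51 genes (rows, names coloured by pathway) on each array (columns). Galactose C is the lowest array for 29 of 51 genes, and glucose A for 9, of which LYS20, LYS21, LYS1 and LYS12 are lysine genes. Galactose C also has the lowest median over all probe sets (108), and the share of all probe sets lowest on it was not counted.

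The arrays with the letter B tended to be the higher ones in both media. For 33 of 51 genes (64.7%) the B array was above the other array in galactose and in glucose, beside 36.6% of all tested probe sets. Among lists described below, this held for 19 of 20 ribosome biogenesis genes, 12 of 16 GCN4 control genes and 11 of 16 other Gcn4 targets. It held for 6 of 10 further pathway genes, 3 of 9 breakdown genes, 2 of 4 galactose genes and 0 of 19 storage and stress genes. The difference galactose B minus galactose C correlated with glucose B minus glucose A at r = 0.377 and rho = 0.422 across the 51 genes. Over all 7302 probe sets these were 0.503 and 0.495, and without the lysine genes they were 0.269 and 0.344 over 42 genes. These are descriptions across genes measured on the same 4 arrays, and genes are not independent replicates. Set against its own letter, the median of the 51 was -0.31 for galactose B minus glucose B. For galactose C minus glucose A, which share no letter, it was -0.22.

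**Figure D4:**
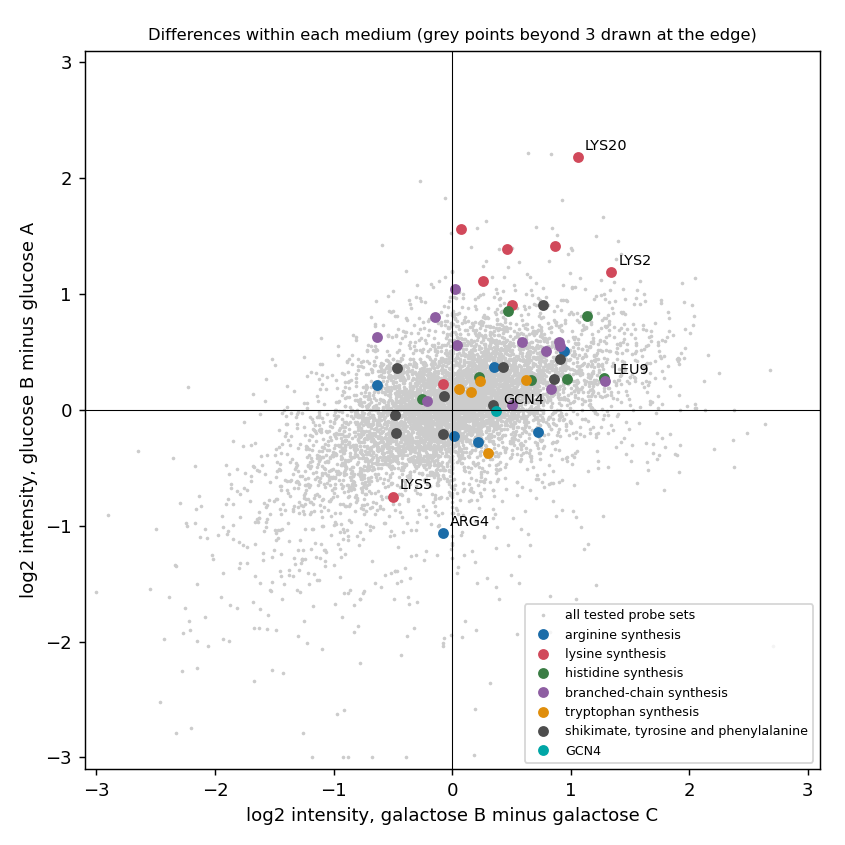
Difference of log2 intensity between the galactose arrays (horizontal axis, galactose B minus galactose C) and between the glucose arrays (vertical axis, glucose B minus glucose A) for the 51 genes (coloured by pathway) and all tested probe sets (grey). Lysine genes hold the highest vertical positions among the 51, with LYS20 at the top (2.18), while ARG4 (-1.06) and LYS5 (-0.75) are the lowest.

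GCN4 (YEL009C), the activator gene, was bright on every array. Its intensity was 9605 in galactose B, 7413 in galactose C, 8157 in glucose A and 8077 in glucose B. The glucose arrays lay between the galactose arrays, which differed 1.30-fold, and the mean ratio was 1.04-fold (adjusted p = 0.960). The 95% interval of the log2 difference, -0.53 to 0.65, leaves room for a change of up to 1.56-fold higher or to 0.691 of the glucose level. The arrays measure the transcript and not Gcn4 protein.

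Of 16 genes that act on GCN4 translation or on Gcn4 protein, 0 passed the threshold, while 3 had an unadjusted limma p under 0.05, all lower in galactose, and 8 were lower on each galactose array than on either glucose array and 2 were higher. Of all tested probe sets, 4.33% were lower at such a p, 22.1% were lower without overlap and 17.0% higher. Their median log2 difference was -0.39. The 3 encode parts of the translation initiation machinery. GCD11 (YER025W), the gamma subunit of initiation factor eIF2, was 1499.7 in galactose B, 1287 in galactose C, 2428 in glucose A and 2505 in glucose B (1.78-fold lower, adjusted p = 0.374). SUI2, the alpha subunit gene whose product Gcn2 phosphorylates, was 451 in galactose B, 418 in galactose C, 753 in glucose A and 812 in glucose B (1.80-fold lower, adjusted p = 0.383). GCN3, a regulatory subunit of the exchange factor eIF2B, stood at 247 ± 51.5 on galactose and 476 ± 108 on glucose (adjusted p = 0.524). GCD6, a catalytic subunit gene of eIF2B, stood at 164 ± 40.2 on galactose and 268 ± 47.6 on glucose (adjusted p = 0.592).

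Other synthesis genes known as Gcn4 targets, for aspartate, serine, proline and glutamate derived amino acids, were set beside the 51. Of 16, 0 passed, 2 were lower in galactose at an unadjusted p under 0.05 (4.33% of all tested probe sets), and 9 were lower on both galactose arrays (22.1%) and 1 higher (17.0%). Their median log2 difference was -0.40. ASN1 (YPR145W), an asparagine synthetase gene, was 283 in galactose B, 186 in galactose C, 490.2 in glucose A and 706 in glucose B, a 2.56-fold lower level (adjusted p = 0.363). SER2, the phosphoserine phosphatase gene, stood at 299 ± 182 on galactose and 703 ± 258 on glucose (adjusted p = 0.591). GLN1, the glutamine synthetase gene, stood at 2505 ± 904 on galactose and 4436 ± 619.7 on glucose (adjusted p = 0.577), and PRO1, the first gene of proline synthesis, at 305 ± 72.5 on galactose and 514 ± 146 on glucose (adjusted p = 0.608).

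Of 9 amino acid breakdown genes, 0 passed and 2 had an unadjusted p under 0.05, both lower in galactose (4.33% of all tested probe sets were), with a median log2 difference of -0.44. CHA1 (YCL064C), the serine and threonine deaminase gene known to be induced by those amino acids, had the largest difference of any amino acid gene listed here. It stood at 24.4 in galactose B, 46.9 in galactose C, 247 in glucose A and 125 in glucose B, so both glucose arrays were far above both galactose arrays (5.18-fold lower, adjusted p = 0.239, 95% interval of the log2 difference -3.67 to -1.08). GCV1, a glycine cleavage gene, stood at 1345 ± 514 on galactose and 2511 ± 179.8 on glucose (adjusted p = 0.546), and GCV2 of the same complex at 2201 ± 1155 on galactose and 3466 ± 1704 on glucose (adjusted p = 0.766). CAR2, the ornithine aminotransferase gene of arginine use, was the other way round, at 2817 ± 380.3 on galactose and 1651 ± 703 on glucose (adjusted p = 0.592).

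Further genes of the 51's own pathways and their regulators numbered 13, of which 10 had a probe set of their own and were tested. None passed or had an unadjusted p under 0.05 in limma, and 3 of the 10 were lower on both galactose arrays, a share near the 22.1% of all tested probe sets. The median log2 difference of the 10 was -0.20. OAC1 (YKL120W), a mitochondrial carrier gene that also moves the leucine precursor isopropylmalate, was 145 in galactose B, 72.0 in galactose C, 98.1 in glucose A and 259 in glucose B. Both B arrays were the highest, as for LYS2 and LYS4. The lysine permease gene LYP1 stood at 794 ± 116 on galactose and 1041 ± 77.9 on glucose, MKS1, a regulator of the retrograde genes that supply glutamate, at 113 ± 3.80 on galactose and 136 ± 0.858 on glucose, and MCM1, a partner of the arginine regulators, at 447 ± 6.81 on galactose and 534 ± 6.07 on glucose.

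Growth and storage transcripts also differed between the arrays of a medium. A list of 20 ribosome biogenesis genes, all tested, summed to 20866 in galactose B, 9918 in galactose C, 22779 in glucose A and 28975 in glucose B. Its median log2 difference from the glucose mean was -0.44 for galactose B and -1.73 for galactose C, where the 51 genes had -0.087 and -0.42. A list of 19 trehalose, glycogen and stress genes ran the other way, summing to 49704, 96962, 59399 and 43687 in the same order. The ratio of the 3′ to the 5′ control probe set of ACT1, a measure of RNA integrity and labelling, was 2.41 and 1.88 on the galactose arrays and at most 1.49 on the glucose arrays. That of SRB4 was 27.2 and 26.6 on the galactose arrays, 10.3 in glucose A and 21.6 in glucose B, with its 5′ probe set under the floor on every array but glucose A. The ratio of SPT15 did not separate the media, at 1.91 and 1.88 on galactose, 2.13 in glucose A and 1.38 in glucose B. The part of growth state or RNA quality in the differences of the 51 genes was not tested.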

How the data were processed

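Transcript levels in 4 RNA samples were taken from the deposited linear intensities, 1 value per probe set and array, which the authors summarised. The sources used here do not give the software, background treatment or scaling. Array medians differed by a factor of 1.08, under the limit of 1.1 set for using values unscaled. The 60 array controls among 9335 probe sets were set aside. For the rest, the platform annotation gave 1 gene for 6504 (each found in RefSeq's R64 table by its gene number), several for 328 and none for 2443. That table's gene order served only to find neighbouring genes. No sequences were used, and a planned search of promoters for motifs was not run.

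After flooring at 18.5 (25th percentile) and log2, the 1973 probe sets at the floor throughout were dropped from testing. A fold is a difference of mean log2 values, whereas means and SDs describe unfloored intensities. The media were compared on 7302 probe sets in limma 3.58.1 (R 4.3.3; lmFit, then eBayes with a trend on intensity; 2 residual and 4.73 total degrees of freedom), adjusting by Benjamini-Hochberg over all of them. An exact permutation test on 2 against 2 arrays cannot reach 0.05. No block was fitted. The code was tested on simulated data. Tables and figures were made in Python 3.11.15 (pandas 2.3.3, numpy 2.4.6, matplotlib 3.10.9).

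The members and lists were chosen with earlier results of these data known. All 51 members could be named. From each other amino acid list came the genes past the threshold or, with none, up to 4 with the largest difference among those above the floor on all arrays. ARO80 falls outside this rule and was named after its values were seen. Listed genes without a tested probe set of their own are not reported here. The 15 alternative settings concerned scaling, floor, filter, variance model, probe set choice and single arrays. Differences by letter and medians without lysine genes were added once the data had been seen.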

Additional observations from a re-analysis of the deposited data

How the results depend on the processing

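No paired analysis was possible because the media share only the letter B. In all 15 alternative settings 0 of the 51 genes passed the threshold (50 genes with the floor at the 40th percentile), and the lowest adjusted p was 0.204, without galactose B. In limma, 0 were at an unadjusted p under 0.05 in each setting that kept all 4 arrays. With the settings used above, 8.61% of all tested probe sets were. A fit with 1 array left out assumes that the lone array varies like the other medium's. Over all probe sets, the 61 calls (58 higher, 3 lower) numbered 28 under quantile scaling, 36 under a lower floor (10th percentile), 28 when the floor was dropped, and 6 both among probe sets that list 1 gene and with 1 probe set per gene. They became 0 without any 1 array. The median log2 difference of the 51 genes, -0.38, lay between -0.55 and -0.087 with 1 array left out and between -0.38 and -0.30 in the settings that kept all arrays. A difference changed sign for 23 of 51 genes without some array and for 3 under a setting that kept all arrays; none of these was past the threshold. The median within galactose, -0.35, was -0.23 after a shift to a common median and -0.44 under quantile scaling, and that within glucose, 0.27, was 0.21 and 0.33. Both kept their signs under the floors and filter tried and without the lysine genes. Causes were not tested.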
